A study of Mus musculus with 10 samples.

Results

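The 6 long noncoding RNA genes described here were followed through 10 single neurons of the mouse nucleus of the solitary tract, a brainstem relay of signals from the gut and circulation. They are Malat1, Neat1, Miat, Snhg11, Snhg14 and Pantr1, all 6 of which were among the 25006 genes listed in each neuron's count table. They were found by matching each table's Ensembl identifier to its symbol, and their level is given as CPM, the usual unit that scales every library's counts to the same total. The neurons came from 3-month-old C57BL/6 mice in which a LepRb-Cre driver switches on a yellow fluorescent protein (LepRb-Cre; Halo-eYFP), and all 10 carry this reporter. It marks cells by the activity of the leptin receptor driver, at the time of recording or earlier. Each cell's cytoplasm and nucleus were drawn into a glass pipette from a 285 µm slice kept for 50 min in artificial cerebrospinal fluid. The groups are 5 neurons with a type 1 firing property (1-1, 1-2, 4-3, 8-2 and 9-1) and 5 with a type 2 firing property (6-2, 9-2, 9-4, 10-1 and 10-3). What distinguishes the firing patterns is not given in the sources used here. No animal is named, so each type counts as 1 sample, the SD is a spread between cells, and no test between types was made.

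Long noncoding RNAs are made by the same polymerase as messenger RNAs but encode no known functional protein. Several of them stay in the nucleus, where they bind proteins of RNA processing. Malat1 collects in nuclear speckles, the stores of splicing factors, and is abundant in neurons. Neat1 is the scaffold of paraspeckles, bodies that hold back RNAs and proteins, and it is known from glia and from stressed cells. Miat, also called Gomafu, forms a nuclear domain of its own in neurons and binds splicing factors. Snhg11 and Snhg14 are host transcripts from which small nucleolar RNAs can be cut. Snhg14 runs from the imprinted Snrpn region and is best known for the part of it that silences the paternal copy of Ube3a in neurons. Pantr1 is transcribed away from the gene of the neural transcription factor Pou3f3.

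Malat1 and Miat each carry a short sequence element for which they are known, and these are shown because they set the pair apart from messenger RNAs. Both stretches were read from GENCODE M21 transcripts on GRCm38 and are written 5′ to 3′ with T for U. The Malat1 stretch lies at chr19:5795982-5796073 on the minus strand, positions 6600 to 6691 of a transcript of 6983 bases. Capitals mark a U-rich element and a run of 12 A encoded in the genome, which are known to pair with each other in the triple helix that protects the end of the mature RNA. The Miat stretch lies at chr5:112216752-112216812 on the minus strand, positions 5579 to 5639 of a transcript of 9163 bases. Capitals mark 3 copies of TACTAAC, the repeat of Miat, which has the letters of the branch point sequence that the splicing factor Sf1 recognises.
Malat1: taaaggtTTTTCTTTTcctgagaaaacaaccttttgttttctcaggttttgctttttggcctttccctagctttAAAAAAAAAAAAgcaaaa
Miat: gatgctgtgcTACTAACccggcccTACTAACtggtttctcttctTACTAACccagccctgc

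The longest Miat transcript held 6 copies of TACTAAC, counted on the transcribed strand. As a background, 3 of 7040 annotated transcripts of at least 5000 bases held 6 or more, which is 0.0426%. This Miat transcript is itself 1 of the 3, since the limit is its own number and transcripts of Miat were not left out. The longest Neat1 transcript held 1 copy in 20771 bases, and the longest transcripts of Malat1, Snhg11, Snhg14 and Pantr1 held 0.

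All 6 genes lie on autosomes, at the following places in GRCm38 (GENCODE M21). Malat1 (ENSMUSG00000092341; chr19:5795690-5802672, minus strand) has exons that together cover its whole span of 6983 bases. Neat1 (ENSMUSG00000092274; chr19:5824708-5845478, minus strand) lies 22035 bases beyond Malat1 and covers 20771 exon bases. Miat (ENSMUSG00000097767; chr5:112213228-112229395, minus strand) has 9293 exon bases. Snhg11 (ENSMUSG00000044349; chr2:158375638-158386145, plus strand) has 8521 exon bases, and GENCODE M21 lists it as protein coding while RefSeq lists it as a long noncoding RNA. Snhg14 (ENSMUSG00000100826; chr7:59307924-59975759, minus strand) spreads 26093 exon bases over 667836 bases. Pantr1 (ENSMUSG00000060424; chr1:42590782-42694842, minus strand) has 4458 exon bases and starts 925 bases from Pou3f3, on the opposite strand.

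Exons of 5 of the genes overlapped no other gene of the tables. Snhg14 shared 1803 exon bases, 6.91% of its own, with Ube3a on the opposite strand. The strand setting of the counting is not given in the sources used here, so reads from that stretch cannot be told apart between Snhg14 and Ube3a.

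The libraries held 9796799 to 41844825 counts and 5315 to 7367 detected genes, where detected means 3 or more counts and a level of 10 CPM or above. Their totals fell into separate ranges, 4 libraries under 20000000 counts (9796799 to 14976327) and 6 over it (28514869 to 41844825). The shallower set holds 3 type 1 neurons and 1 type 2 neuron (6-2), and the deeper set 2 type 1 and 4 type 2 neurons, so type and depth overlap in part. Of 13 neuron markers, 12 or 13 were detected in each type 1 neuron and 10 to 13 in each type 2 neuron. Of 15 microglia markers, 0 to 6 were detected in type 1 neurons (summed level 0.06677 to 893.6 CPM) and 0 to 13 in type 2 neurons (6.753 to 1872.3 CPM), with 12 in 6-2, 13 in 9-4 and 6 each in 9-2 and 1-2. Of the others, at most 5 of 12 astrocyte, 3 of 13 oligodendrocyte lineage and 1 of 12 vascular and blood markers were detected in a neuron. In the values below, fewer transcripts of a gene cannot be told apart from a smaller part of them drawn, relative to the cell's other RNA. Nor can a missing transcript be told apart from too little RNA drawn.

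Mean levels of all 6 genes were lower in type 2 than in type 1 neurons, but the ranges of the types overlapped for each of them. The median of the 6 differences in mean log2(CPM + 1), type 2 minus type 1, was -1.17. Over the 11923 genes that averaged 1 CPM or above, the median was 0.24 and 43.8% were lower in type 2. Malat1, Neat1 and Snhg11 were lower by at least 1 log2 unit, which 21.6% of all those genes were, and none of the 6 was higher by that much, which 31.1% were. In no case did every type 1 neuron lie above every type 2 neuron, an arrangement found for 0.587% of genes. The direction rests on means: with medians over the neurons of each type, 3 of the 6 were lower in type 2 and 3 were higher. Over all genes, 37.4% were lower by medians, and the median difference was 0.01.

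**Figure D1:**
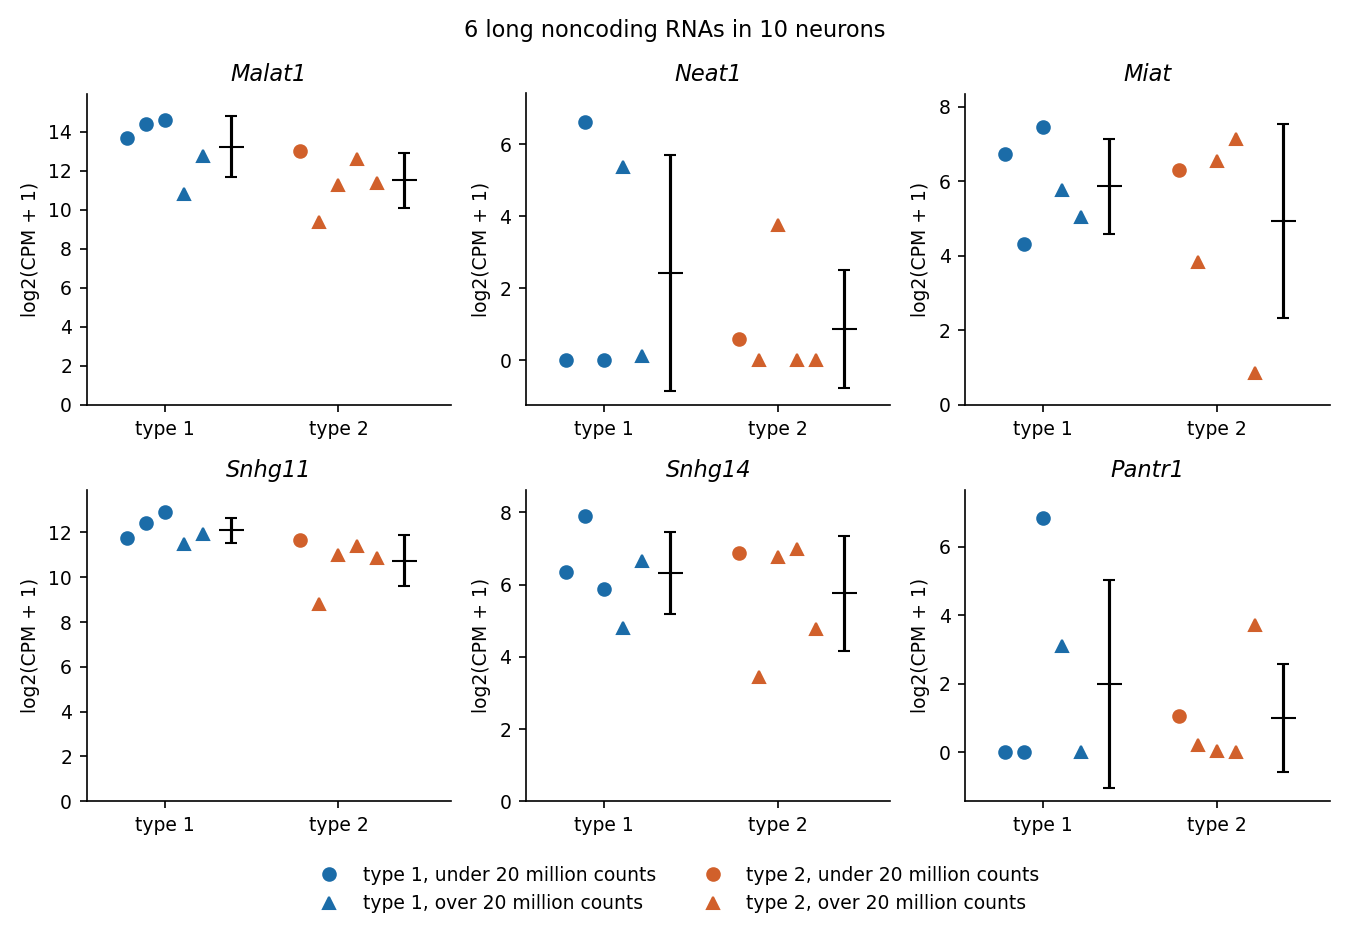
Level of each long noncoding RNA as log2(CPM + 1) (vertical axis) in each of 10 neurons, by firing type. Circles are libraries under and triangles libraries over 20000000 counts, and the bar beside each group is its mean ± SD (n = 5 neurons). Malat1 and Snhg11 are high in all neurons, Miat and Snhg14 are lower by several log2 units, and Neat1 and Pantr1 are at or near 0 in most, with the types overlapping in every panel.

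Malat1 was the most abundant of the 6 and the gene with the highest count of all in 4 of the 10 libraries (1-1, 1-2, 4-3 and 6-2). In type 1 neurons it was at 13164.2 CPM in 1-1, 21417.7 in 1-2, 25042.7 in 4-3, 1783.0 in 8-2 and 6877.5 in 9-1. In type 2 neurons it was at 8269.9 CPM in 6-2, 676.3 in 10-1, 2461.7 in 10-3, 6219.6 in 9-2 and 2626.2 in 9-4. The type 1 neurons 1-1, 1-2 and 4-3 stood above all type 2 neurons, whereas 8-2 lay among the lowest and below all type 2 neurons but 10-1. The mean was 13657 ± 9709 CPM in type 1 and 4050.8 ± 3100.3 in type 2 (SD, n = 5 each), a difference of -1.72 in mean log2(CPM + 1). Malat1 took 2.5% of all counts in 4-3 and 0.0676% in 10-1, and its place among all genes by count ran from first to 209th. Counting error was small beside this spread: the exact Poisson 95% interval of the 28141 counts in 10-1 was 668.4 to 684.3 CPM. Such intervals cover counting error only, since reads without molecular identifiers are not independent molecules.

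Malat1 was the one of the 6 whose levels separated the libraries by depth without overlap. It was at 16973.6 ± 7640.3 CPM (SD, n = 4) in the libraries under 20000000 counts and at 3440.7 ± 2511.8 CPM (n = 6) in those over it, a difference of -2.56 in mean log2(CPM + 1). The lowest shallower library, 6-2, had 8269.9 CPM and the highest deeper one, 9-1, had 6877.5 CPM. Every shallower library lay above every deeper one for 1.60% of the 11923 genes. The depth difference was -2.45 in type 1 (2 deeper against 3 shallower neurons). In type 2 it was -1.86, but 6-2 is the single shallower neuron there and the one with the highest summed microglia markers. Within the deeper libraries the type difference of Malat1 was -0.62, and within the shallower ones -1.21 (3 neurons against 1).

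Among the 6 deeper libraries alone, Malat1 fell with the library total (Pearson r = -0.86, Spearman rho = -0.89 of log2(CPM + 1) against the log10 total, n = 6). Without 8-2 and 10-1, the libraries farthest from the median total, r was -0.70 (n = 4). Over 5544 genes detected in at least 6 neurons, the median of this r was 0.02, and 1.01% had an r as low as that of Malat1. The other members had r values of -0.68 (Snhg14), -0.52 (Snhg11), -0.01 (Miat), 0.17 (Pantr1) and 0.59 (Neat1), and Meg3 had -0.39. Without those 2 libraries they were 0.00, -0.37, 0.02, -0.06 and 0.89, and 0.42 for Meg3. No r over all 10 libraries is given, because their totals form separate ranges.

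**Figure D2:**
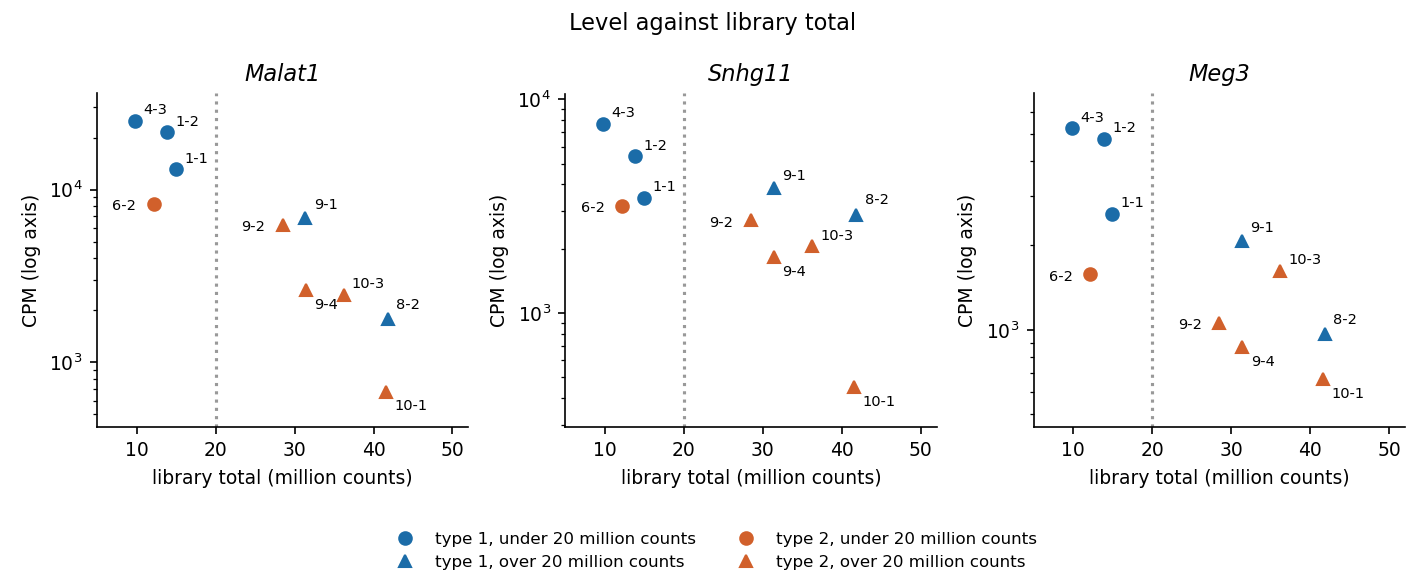
CPM of Malat1, Snhg11 and Meg3 (vertical, log axis) against the library's total count (horizontal), one labelled point per neuron, blue for type 1 and orange for type 2. The dotted line marks 20000000 counts. For Malat1 every point left of the line, 8269.9 CPM or more, lies above every point right of it, 6877.5 CPM or less, whereas Snhg11 and Meg3 overlap across the line.

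Neat1, whose gene lies next to Malat1, was at or near 0 in 7 of the 10 neurons. It was at 97.63 CPM in 1-2 and 40.6 in 8-2, at 0.09559 CPM (3 counts) in 9-1, and at 0 in 1-1 and 4-3, among type 1 neurons. In type 2 it was at 12.51 CPM in 10-3 and 0.492 CPM (6 counts) in 6-2, and at 0 in 9-2, 9-4 and 10-1. It was detected in 3 of 10 neurons, 30% (exact binomial 95% interval 6.67 to 65.2%), and these 3 include both types and both depth sets. The interval treats the 10 neurons as independent draws, though no animal is named, and covers counting error only. In the 5 neurons with no count, depth leaves room for a level of at most 0.0721 CPM (10-1) to 0.306 CPM (4-3), taken as 3 counts of the total. The means were 27.67 ± 42.88 CPM in type 1 and 2.6 ± 5.544 in type 2 (SD, n = 5 each), a log2 difference of -1.56 that shrank to -0.51 without 1-2 and to -0.82 without 8-2.

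Neat1 and Malat1 had an r of 0.02 over the 10 neurons in log2(CPM + 1). In 4-3, the neuron highest in Malat1, Neat1 had no count, and in 8-2, lowest of type 1 in Malat1, Neat1 was at 40.6 CPM. Neat1 is known from microglia and other glia, and 1-2, its highest neuron, also held 6 of 15 detected microglia markers (893.6 CPM summed). In 6-2 and 9-4, with 1872.3 and 1636.2 CPM of microglia markers, Neat1 was at 0.492 and 0 CPM, and in 8-2 and 10-3, with 59.51 and 47.66 CPM, it was at 40.6 and 12.51 CPM.

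Miat was present at a middle level in both types. In type 1 it was at 105.8 CPM in 1-1, 18.98 in 1-2, 174.9 in 4-3, 53.44 in 8-2 and 31.93 in 9-1. In type 2 it was at 79.05 CPM in 6-2, 13.24 in 10-1, 93.2 in 10-3, 141.4 in 9-2 and 0.8268 in 9-4. The types covered nearly the same range, apart from 9-4, where Miat was all but missing. The means were 76.99 ± 63.95 and 65.54 ± 58.35 CPM (SD, n = 5 each), and the log2 difference of -0.92 turned to 0.10 without 9-4. Miat was detected in 9 of 10 neurons. Within the shallower libraries the difference was 0.15 and within the deeper ones -0.80.

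Snhg11, known as a neuron-enriched host transcript, was second to Malat1 and the steadiest of the 6, with a coefficient of variation of 60% over the 10 neurons against 75.3% to 263.1% for the others. Its levels in type 1 were 3464.4 CPM in 1-1, 5410.9 in 1-2, 7704.6 in 4-3, 2884.7 in 8-2 and 3839.1 in 9-1. In type 2 they were 3181.9 CPM in 6-2, 450.5 in 10-1, 2057.4 in 10-3, 2714.1 in 9-2 and 1833.1 in 9-4. Only 6-2 among the type 2 neurons reached into the type 1 range, where it lay above 8-2, and 10-1 stood far below all others. The mean was 4660.7 ± 1942.2 CPM in type 1 and 2047.4 ± 1040.1 in type 2 (SD, n = 5 each), a log2 difference of -1.35. This difference was -1.18 within the deeper libraries, -0.72 within the shallower ones and -0.87 without 10-1. The highest neuron was 17.1 times the lowest, against 37 times for Malat1. Within the deeper libraries, Neat1 and Snhg11 were the members lower in type 2 by at least 1 log2 unit, as were 28.4% of all genes there.

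Snhg14 was detected in 9 of 10 neurons, all but 10-1. In type 1 it was at 80.26 CPM in 1-1, 239.8 in 1-2, 58.08 in 4-3, 27.03 in 8-2 and 98.58 in 9-1. In type 2 it was at 115 CPM in 6-2, 9.782 in 10-1, 108.4 in 10-3, 124.2 in 9-2 and 26.24 in 9-4. The types were intermixed, with 1-2 at the top, and 10-1 at the bottom. The means were 100.7 ± 82.17 and 76.73 ± 54.21 CPM (SD, n = 5 each), and the log2 difference of -0.56 became 0.02 without 10-1.

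Ube3a is the ubiquitin ligase gene that the far end of Snhg14 overlaps in antisense. Its level was 117.9 to 513.3 CPM in type 1 and 95.15 to 356 CPM in type 2. The ratio of Snhg14 to Ube3a in CPM ran from 0.0688 in 8-2 to 0.969 in 1-2 and was 0.434 ± 0.432 in type 1 and 0.332 ± 0.237 in type 2 (SD, n = 5 each). The 2 neurons with the most Ube3a, 4-3 and 1-1, had ratios of 0.113 and 0.182, and 10-1, with the least, had 0.103. Ube3a is the divisor of this ratio, so a high Ube3a level lowers it by construction. Snrpn, the splicing protein gene at the other end of Snhg14, varied far less, from 1257.6 to 3353.5 CPM, with a type difference of 0.27.

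Pantr1 was high in a single neuron. In type 1 it was at 113.1 CPM in 4-3 and 7.647 in 8-2, and at 0 in 1-1, 1-2 and 9-1. In type 2 it was at 12.05 CPM in 9-4, 1.066 in 6-2, 0.1682 (7 counts) in 10-1, 0.02762 (1 count) in 10-3 and 0 in 9-2. It was detected in 2 of 10 neurons, 20% (exact binomial 95% interval 2.52 to 55.6%), 1 of each type. As for Neat1, the interval covers counting error only. The means of 24.15 ± 49.83 and 2.663 ± 5.267 CPM (SD, n = 5 each) give a log2 difference of -0.99, which was 0.23 without 4-3.

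Its neighbour Pou3f3 was at 19.29 CPM in 4-3, 24.85 in 6-2, 29.15 in 10-1 and 32.44 in 9-2, and below 6 CPM in the rest. At the detection limit of 10 CPM, Pantr1 and Pou3f3 were both detected in 4-3 alone. Below that limit, 8-2 held both, Pantr1 at 7.647 CPM and Pou3f3 at 5.879 CPM. In 6-2 Pantr1 was at 1.066 CPM, and in 9-4, where it was at 12.05 CPM, Pou3f3 was at 0.159 CPM. In 10-1 and 9-2, 2 of the neurons highest in Pou3f3, Pantr1 was at 0.1682 and 0 CPM. Pantr2, on the other side of Pou3f3, had no count in any neuron.

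Compared per kilobase of exon, the order of the levels was kept at the top. Malat1 had a median over the 10 neurons of 937.8 CPM per kb, Snhg11 of 356.0, Miat of 7.13, Snhg14 of 3.43, Pantr1 of 0.022 and Neat1 of 0.0023. Malat1 lay above Snhg11 in every neuron but 8-2, where the values were 255.3 and 338.5 CPM per kb. Miat lay above Snhg14 in 7 of 10 neurons, so these neighbours in the order did not separate, and neither did Pantr1 and Neat1. The lowest level of Snhg11, 52.9 CPM per kb in 10-1, was above the highest of Miat, 18.8 in 4-3.

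Malat1 and Snhg11 rose and fell together across cells. Their log2 levels had a Pearson r of 0.89 and a Spearman rho of 0.88 (n = 10), 0.81 without 10-1 and 4-3 and 0.85 within the 6 deeper libraries. The median r over the 15 pairs of the 6 genes was 0.29. Malat1 with Snhg14 had r = 0.75, which was 0.56 without 10-1, and Snhg11 with Snhg14 had 0.71, which was 0.33 without it. Miat had r = 0.42 with Malat1 and 0.44 with Snhg11. The points share library depth as well as cell, and these r values are descriptions.

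The share between the pair was not fixed. The ratio of Malat1 to Snhg11 in CPM was 3.8 in 1-1, 3.96 in 1-2, 3.25 in 4-3, 0.618 in 8-2 and 1.79 in 9-1, and 2.6 in 6-2, 1.5 in 10-1, 1.2 in 10-3, 2.29 in 9-2 and 1.43 in 9-4. The 4 shallower libraries held the 4 highest ratios, and 8-2 alone had more Snhg11 than Malat1. By type the ratio was 2.68 ± 1.44 and 1.8 ± 0.606 (SD, n = 5 each), with overlap.

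**Figure D3:**
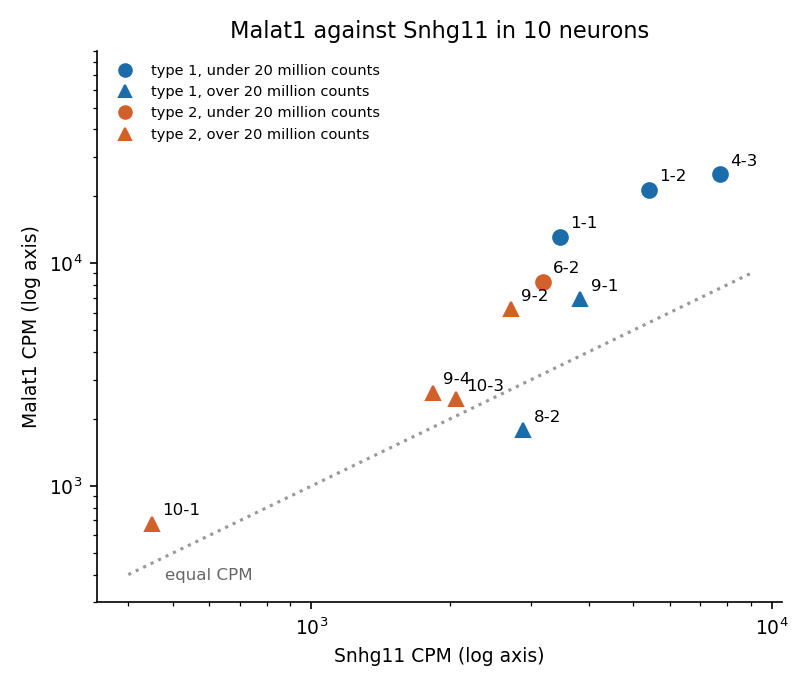
Malat1 against Snhg11 in CPM, both on log axes, one labelled point per neuron (blue type 1, orange type 2, circles under and triangles over 20000000 counts). The dotted line marks equal CPM, and 8-2, with a ratio of 0.618, is the neuron below it. Neuron 10-1 is lowest on both axes and 4-3 highest.

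The promoters of this pair are shown because their levels moved together most closely among the 6. They are RefSeq windows of GRCm38.p6, from 250 bases before to 50 after the annotated start, and RefSeq windows were at hand for 4 of the 6 genes (Malat1, Miat, Snhg11 and Snhg14). The Malat1 window is chr19:5802623-5802922 on the minus strand and the Snhg11 window chr2:158375463-158375762 on the plus strand. Capitals mark TGACGT in either direction, the core of the motif of CREB, a transcription factor regulated by activity.
Malat1: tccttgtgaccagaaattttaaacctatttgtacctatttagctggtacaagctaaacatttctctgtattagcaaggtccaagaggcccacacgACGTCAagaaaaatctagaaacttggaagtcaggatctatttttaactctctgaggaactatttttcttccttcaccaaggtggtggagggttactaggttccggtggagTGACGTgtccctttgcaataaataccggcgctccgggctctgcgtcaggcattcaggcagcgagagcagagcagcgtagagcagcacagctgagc
Snhg11: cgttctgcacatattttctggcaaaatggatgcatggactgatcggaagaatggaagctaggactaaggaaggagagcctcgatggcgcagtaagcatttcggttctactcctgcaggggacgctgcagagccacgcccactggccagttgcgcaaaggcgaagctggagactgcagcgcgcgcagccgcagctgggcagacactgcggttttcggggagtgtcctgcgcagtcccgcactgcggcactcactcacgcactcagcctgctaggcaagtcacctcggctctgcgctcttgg

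TGACGT, searched on both strands, occurred 2 times in the Malat1 window and in none of the other 3. Of all 32851 promoter windows in the table, 7.51% held it. GGGCGG, the letters of a GC box, were in the Miat window and in 35.7% of all windows, and TATAAA was in none of the 4 and in 13.6% of all. The Snhg14 window (chr7:60450128-60450427, minus strand) belongs to a RefSeq start outside the GENCODE gene that was counted. GC content was 47% for Malat1, 60% for Snhg11, 64.3% for Miat and 45% for that window. A match to these letters is a description and not a bound site.

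The genes whose patterns were closest to each member were found among 5283 named genes detected in at least 6 neurons. For Malat1 they were Adrm1, a ubiquitin receptor of the proteasome (r = 0.97), Vcp, an ATPase that extracts ubiquitinated proteins (0.93), and Tet2, an enzyme that oxidises methylated DNA (0.92). Meg3 stood 7th (0.90) and Snhg11 8th (0.89) in that order. For Snhg11 they were Clk1, a kinase of splicing factors (0.97), Stox2 (0.94) and Akap8, a nuclear anchoring protein (0.93), with Malat1 12th. Clk1 ran from 0.1923 CPM to 832.5 CPM and averaged 320.9 ± 286.8 in type 1 and 76.87 ± 70.07 in type 2.

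For Miat the closest were Gfra4, a receptor subunit of the GDNF family (0.91), Wnk1, a kinase that controls chloride transporters (0.90), and Scd2, a fatty acid desaturase (0.88). For Snhg14 they included Banp (0.91) and Mef2d, an activity-regulated transcription factor (0.89). Each r is over 10 neurons, was chosen as the highest of 5283, and is given as a description only.

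Other long noncoding RNAs known from neurons or the nucleus were more often lower than higher in type 2. Of 24 listed, 16 averaged 1 CPM or above, and of these 12 were lower and 4 higher, with a median difference of -0.49, against 43.8% lower and a median of 0.24 over all genes. Meg3, an imprinted RNA of neurons, had an r of 0.90 with Malat1. It was at 2594.2, 4802.6, 5230.7, 964.9 and 2079.3 CPM in 1-1, 1-2, 4-3, 8-2 and 9-1, and at 1575.0, 666.5, 1623.7, 1057.8 and 865.9 CPM in 6-2, 10-1, 10-3, 9-2 and 9-4. As with Malat1, 8-2 lay in the type 2 range and 10-1 was lowest, and the log2 difference of -1.28 was -0.50 within the deeper libraries.

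Crnde and Pvt1 differed most between the types in that list. Crnde was at 38.17 to 105.5 CPM in type 1 and at 0 to 0.1442 CPM in type 2. Every type 1 neuron thus lay above every type 2 neuron, as for 0.587% of genes. Pvt1 was at 0 to 0.0478 CPM in type 1 and at 0.2806 to 108.3 CPM in type 2, where 9-2 was the low neuron. The share of all genes with every type 2 neuron above every type 1 neuron was not computed.

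Of the 12 other small nucleolar RNA host genes measured out of 18 listed, 6 were lower and 6 higher in type 2. Their median difference was 0.02, and over all genes 43.8% were lower, with a median of 0.24. Snhg1, at 17.94 ± 23.12 and 46.9 ± 67.54 CPM, and Epb41l4aos, at 5.51 ± 8.599 and 9.987 ± 8.741 CPM (SD, n = 5 each), are the hosts that the naming rule picks, with differences of 1.63 and 1.36. A difference between Snhg11 or Snhg14 and these hosts was not tested.

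Proteins of the bodies in which these RNAs collect were described next. Of 20 nuclear speckle genes, 15 were lower and 5 higher in type 2 (median -0.76), beside 43.8% lower and a median of 0.24 over all genes. Son, a speckle scaffold, was at 469.7 ± 311.6 CPM in type 1 and 154.1 ± 74.7 in type 2, a difference of -1.62, with overlap. Srrm2, the other scaffold, was at 497.5 ± 255.4 and 344.7 ± 166.6 CPM (-0.44), and Srsf4, a splicing factor, at 17.07 ± 26.87 and 25.94 ± 29.04 CPM (1.61). Of 18 paraspeckle genes, 12 were lower and 6 higher (median -0.44). Nono was at 37.68 ± 37.72 and 104.2 ± 104.1 CPM (2.56), its partner Sfpq at 71.26 ± 80.03 and 40.22 ± 50.84 CPM (-1.08), Hnrnpa1 at 85.55 ± 58.35 and 21.42 ± 14.41 CPM (-1.88) and Tardbp at 90.3 ± 84.42 and 36 ± 50.14 CPM (-1.53; SD, n = 5 each). Across the 4 libraries in which Malat1 was the gene with the highest count, Nono and Tardbp had at most 1 count in 1-1 and 4-3, but were at 84.14 and 131.3 CPM in 1-2 and at 60.6 and 105.3 CPM in 6-2.

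Genes whose products act on the members had mixed signs. Beside them, 56.2% of all genes were higher in type 2, with a median of 0.24. Of 11 measured genes for the cutting of the Malat1 end or for binding its triple helix, 4 were lower and 7 higher in type 2 (median 0.84). Rpp25, a subunit of RNase P, which cuts the end of Malat1, was at 5.31 ± 11.67 and 66.99 ± 34.24 CPM. Its type 1 values of 0 to 26.19 CPM lay below all type 2 values of 40.05 to 109.8 CPM. It was named for the largest difference of its list, and the share of all genes so arranged was not computed. Another subunit, Rpp38, was at 43.71 ± 39.65 and 7.736 ± 13.61 CPM, with overlap. Of 5 splicing factors known to bind Miat, 2 were lower and 3 higher (median 1.16). Qk, an RNA-binding protein of glia and some neurons, was at 21.59 ± 39.45 and 37.28 ± 18.28 CPM, with a log2 difference of 2.82. Khdrbs1 was at 86.07 ± 88.86 and 78.29 ± 8.758 CPM (SD, n = 5 each), lower in type 2 by the mean CPM, but its difference in mean log2(CPM + 1) was 1.98, since 1-1 and 9-1 were at 0 and 0.223 CPM. In 9-4, the neuron with almost no Miat, Qk was at 7.696 CPM and Khdrbs1 at 89.49 CPM.

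Genes next to the members were lower or higher in type 2 by gene. Of 14 listed, 9 were measured, 3 lower and 6 higher in type 2 (median 0.74), beside 56.2% higher over all genes. Ralgapb, near Snhg11, was at 38.48 ± 70.75 and 8.9 ± 13.7 CPM (SD, n = 5 each), with overlap.

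**Figure D4:**
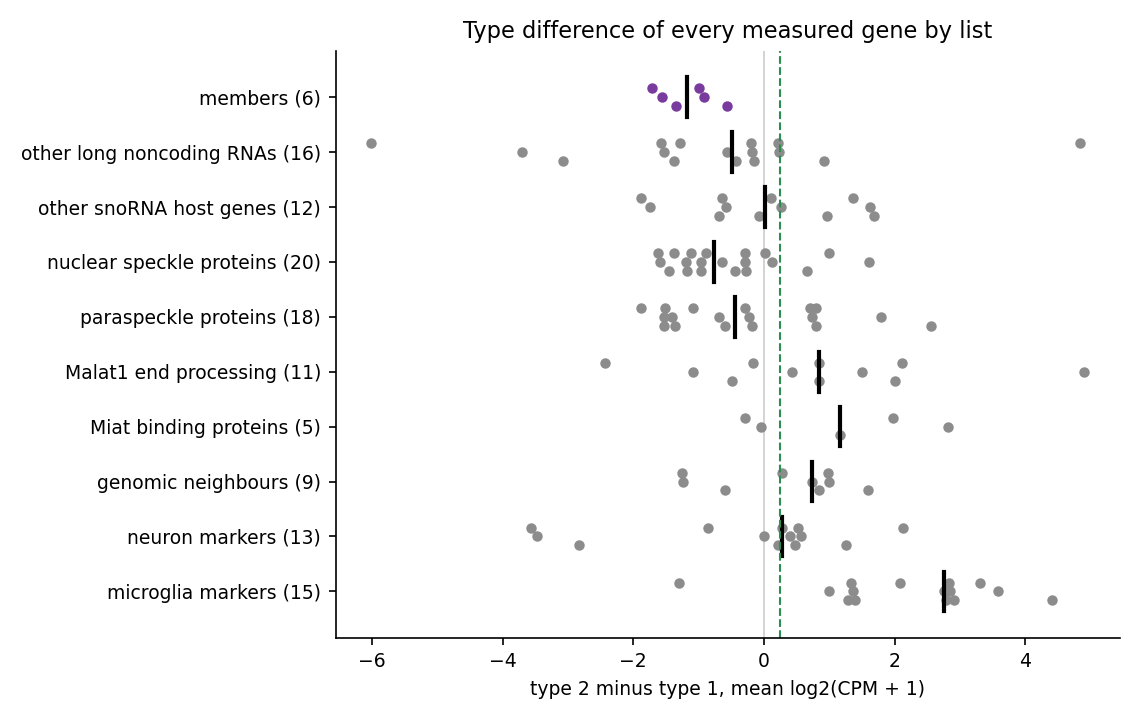
Difference in mean log2(CPM + 1), type 2 minus type 1 (horizontal), of every measured gene (points) in 10 lists (rows, with the number of genes). Black bars are list medians, and the dashed line is the median over 11923 genes, 0.24. The 6 members have a median of -1.17, nuclear speckle genes of -0.76 and microglia markers of 2.75.

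Markers of cell types give the frame for these differences, beside 56.2% of all genes higher in type 2. Among 13 neuron markers, 5 were lower and 8 higher in type 2 (median 0.27), with differences of -3.47 for Nefl and -3.56 for Rbfox3, the pair that the naming rule picks. Among 15 microglia markers, 1 was lower and 14 higher (median 2.75), with Tyrobp at 4.41 and Csf1r at 3.58. Other glial and vascular lists had medians of 0.28 (6 of 12 astrocyte genes measured), 0.64 (4 of 13 oligodendrocyte lineage genes) and -0.78 (2 of 12 vascular and blood genes). S100b differed by -2.22, Atp1b2 by 0.16 and Cnp by 2.01. The part of microglial RNA in the results was not tested. One setting left out 6-2, 9-2 and 9-4, the type 2 neurons richest in those markers. The type 2 neurons that remained, both of them deeper libraries, were compared with all 5 type 1 neurons. Type 1 neuron 1-2 was kept, at 893.6 CPM of summed microglia markers against 491.8 CPM in 9-2. Of all genes, 50.5% were lower in type 2 under this setting, and 31.2% by at least 1 log2 unit. All 6 members had lower means in type 2. The differences were then -2.91 for Malat1, -2.18 for Snhg11, -1.86 for Pantr1, -1.22 for Snhg14, -0.67 for Miat and -0.55 for Neat1.

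By depth, all 6 members had a lower mean in the deeper libraries, as had 5601 of the 11923 genes. The median difference was -1.23 for the members against 0.12 over all genes. Malat1 (-2.56), Miat (-1.34), Snhg11 (-1.26) and Snhg14 (-1.19) were lower by at least 1 log2 unit, as were 24.9% of all genes, and none was higher by as much, as 28.0% were. Pantr1 (-0.79) and Neat1 (-0.26) were the others. Snhg11 was at 4940.4 ± 2092.3 CPM under and 2296.5 ± 1147.1 CPM over 20000000 counts (SD, n = 4 and 6), with overlap, and Meg3 at 3550.6 ± 1752.0 and 1209.7 ± 533.6 CPM. Within each type, 5 of the 6 were lower in the deeper libraries, though Pantr1 differed by only -0.05 in type 2. Neat1 was higher, by 0.55 in type 1 and 0.36 in type 2, where 6-2 is the single shallower neuron. No share over all genes was computed within a type. Nuclear speckle genes had a median depth difference of -0.30, paraspeckle genes of -0.61 and other long noncoding RNAs of -0.64.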

How the data were processed

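RNA of 10 single neurons was measured, 1 library each. Per the file headers, the tables the authors deposited give a gene and its count, and all values are whole numbers with no normalization. The submitters' processing notes name cutadapt 1.13, STAR and HTSeq 0.6.1p1 (also DESeq2) with mm10. The sources used here do not give the annotation release or strand setting. No molecular identifiers are stated, so counts are taken as reads, not molecules.

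CPM was computed from the sum of all gene counts in a library, and log2(CPM + 1) was averaged by type. No test between types was run. The members and lists were chosen with earlier results of these data known. Named genes are all 6 members, the 2 largest differences of each list among genes detected in 3 or more neurons of either type, the 3 closest genes by Pearson r, and Meg3, Ube3a, Snrpn, Pou3f3, Pantr2, Sfpq, Nono, Tardbp, Srrm2, Son and Qk by name. Some genes that this rule names are not reported here. Symbols matched 24942 of 25006 identifiers. Chi-square per degree of freedom was 558.8 or more for all 45 library pairs, so no library was a copy. The mean-difference step was tested on simulated data. Alternatives used TMM (edgeR 4.0.16) and DESeq2 1.42.0 size factors on the deposited counts, other pseudocounts, detection levels, thinning, medians and left-out neurons. Python 3.11.15 with numpy 2.4.6, scipy 1.17.1 and pandas 2.3.3, and R 4.3.3, were used.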

Additional observations from a re-analysis of the deposited data

Results flagged for a closer look

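A gap test was applied to the highest and lowest neuron of each type for the 6 genes, 12 groups of 5 neurons. On the log2(CPM + 1) scale, it compares the gap to the nearest neuron with the whole range and passes at 0.71, and chance passes about 1 in 20 groups. Of these, 3 values passed. Neat1 in 10-3, at 12.5 CPM, stood above the other type 2 neurons, with a gap of 0.846 of the range in log2(CPM + 1). Snhg11 in 10-1, at 450.5 CPM, stood below the other type 2 neurons, with a gap of 0.718 of the range on that scale. Pantr1 in 9-4, at 12.1 CPM, stood above the other type 2 neurons, also with a gap of 0.718. In 10-1, Malat1 (676.3 CPM), Snhg14 (9.782 CPM) and Meg3 (666.5 CPM) were also the lowest of all 10 neurons, while its neuron markers summed to 13440.6 CPM.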

How the results depend on the processing

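Over 22 alternatives, Malat1 (-2.91 to -0.62), Snhg11 (-2.18 to -0.72) and Neat1 (-2.99 to -0.13) stayed lower in type 2. For Neat1, the -0.13 with medians and in neurons whose names begin with 9 rests on 3 counts in 9-1. Medians over neurons gave 3 members lower, 1 lower by at least 1 log2 unit and a median difference of 0.05, opposite in sign to the means. Over all genes, medians gave 37.4% lower, 17.5% lower by that much and a median of 0.01. In the 3 neurons whose names begin with 9, 1 member was lower by at least 1 log2 unit, as were 24.3% of all genes. Pantr1 was higher there, by 1.85. Miat, Snhg14 and Pantr1 changed sign with medians (0.56, 0.43 and 0.22), Miat and Snhg14 also in the shallower libraries (0.15 and 0.14). The cause was not tested. Leaving out 1 neuron gave 5 to 6 members lower, beside 41.6% to 45.7% of all genes. It gave 2 (without 8-2 or 10-1) to 5 (without 9-1) lower by at least 1 log2 unit, beside 21% to 24.7%. The medians were then -1.46 to -0.83, beside 0.14 to 0.37 over all genes. In the deeper libraries, 5 to 6 members were lower, for which no share over all genes is given. The median r of the 15 pairs was 0.17 to 0.40 under 4 alternatives, 0.20 without 10-1, which was chosen after seeing the data. With TMM, all genes had a median of 0.39 in place of 0.24, and Malat1 a difference of -1.49. A pseudocount of 10 left 10.4% of all genes lower by at least 1 log2 unit in place of 21.6%. Detected neurons went from 3 to 1 for Neat1 at 50 CPM, and from 2 to 4 at 1 CPM or 1 at 50 CPM for Pantr1. No paired analysis was possible because the names of the 2 types share a single first number, 9. Where Neat1 or Pantr1 had a count of 0, depth limits its level only to 0.0721 CPM (Neat1 in 10-1) to 0.306 CPM (Neat1 in 4-3).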
